A study of Mus musculus with 4 samples.

Results

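The integrated stress response is read here through 8 genes, Atf4, Atf3, Ddit3, Trib3, Ddit4, Sesn2, Chac1 and Asns, whose transcripts were counted in 4 mouse liver sections. The genes were taken by symbol and not by a cutoff on a measured value, but the list was chosen with earlier results of these data known. All 8 symbols were present, as 9 of the 19465 gene identifiers measured, because Ddit3 is listed under a pair of identifiers. All 9 passed the filter on low counts in each comparison below. Transcripts were captured with the Visium assay, in which an array of barcoded spots, each covering several cells, takes up RNA-templated probes from a formalin-fixed, paraffin-embedded section. Each section came from a separate mouse.

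The single mouse of the Hk2-deleted fibrotic group (n = 1) was PDGFRBcreERT2/Hk2fl/fl and received carbon tetrachloride (CCl4), a hepatotoxin that is activated in pericentral hepatocytes. The fibrotic sections (n = 2) came from HK2fl/fl littermates given CCl4, and the healthy section (n = 1) from an HK2fl/fl littermate given olive oil. All mice, controls included, carried the floxed hexokinase 2 gene and received tamoxifen at 75 mg/kg for 5 days, followed by a wait of 2 weeks. They are labelled as males of 5 months. CCl4 was injected at 1 µL/g, 2 times a week; the series' design gives 6 weeks and the sample protocol 4 or 6. Pdgfrb regulatory DNA directs the Cre to stellate cells, the collagen makers of the liver, and to other mural cells, and not to hepatocytes, the bulk of each spot. With 1 or 2 mice a group, the fibrotic pair alone shows how whole sections of a group differ. The p-values and standard errors below also borrow from the spread of all genes, so they do not measure a gene's own spread between sections alone. The lone sections are assumed to vary like the fibrotic pair.

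In this pathway, kinases that sense misfolded protein in the endoplasmic reticulum, amino acid shortage, haem shortage or double-stranded RNA phosphorylate the translation initiation factor eIF2. General protein synthesis then falls, while the mRNA of the transcription factor ATF4 is translated better. ATF4 and its partners induce genes for amino acid supply, for restraint of the growth kinase complex mTORC1 and, under lasting stress, for cell death. In the liver the same genes also answer to feeding, insulin and glucocorticoids. Transcript counts measure neither eIF2 phosphorylation nor ATF4 protein.

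A DNA element bound by pairs of ATF4 and C/EBP proteins, the C/EBP-ATF response element, was searched for as TGATGNAA or, on the other strand, TTNCATCA in the RefSeq promoters of the 8 genes on the GRCm38.p6 build. These span 250 bases before to 50 after the annotated start. The 4 genes that held a match are shown, because a shared element stands before genes with different values after CCl4 below: Atf3 was higher, Trib3 and Chac1 were lower, and Asns did not pass the test. Each is written 5′ to 3′ on the gene's own strand, with the matched bases in capitals.
Trib3: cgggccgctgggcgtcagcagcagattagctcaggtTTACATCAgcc
Atf3: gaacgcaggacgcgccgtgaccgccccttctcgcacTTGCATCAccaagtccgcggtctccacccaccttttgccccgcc
Chac1: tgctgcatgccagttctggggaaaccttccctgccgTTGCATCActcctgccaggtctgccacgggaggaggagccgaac
Asns: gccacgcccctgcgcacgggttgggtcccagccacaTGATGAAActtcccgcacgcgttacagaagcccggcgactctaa
The Trib3 stretch is chr2:152344036-152344082 on the minus strand, with the match beginning 14 bases after the start. The Atf3 stretch is chr1:191183400-191183479 on the minus strand, with the match beginning 110 bases before the start. The Chac1 stretch is chr2:119351013-119351092 on the plus strand and its match begins 193 bases before the start. The Asns stretch is chr6:7693189-7693268 on the minus strand and its match begins 23 bases before the start. Matches occurred in 4 of 8 members and in 3.97% of 32851 promoters. The cAMP response element TGACGTCA occurred in 0 of 8 members and 1.79% of promoters. The hypoxia response core ACGTG, searched on both strands, occurred in 3 of 8 members (Ddit3, Ddit4 and Asns) and in 19.6% of promoters, and in Asns it did not overlap the element shown. A match is a description of these letters only.

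Several facts of the sections bear on the values below. Totals were 65179106 UMIs over 3865 spots in the Hk2-deleted section, 67479047 over 4134 and 40585039 over 2577 in fibrotic replicates 1 and 2, and 54031683 over 3064 in the healthy section. The arrays shared 1710 spot barcodes, which name positions on the array. Hk2 itself was at 3.50 CPM (counts per 1000000 UMIs of the section) in the Hk2-deleted section, 4.88 and 3.94 CPM in the fibrotic sections and 1.85 CPM in the healthy section, so whole sections do not show its loss from stellate cells. Fibrotic replicate 1 went against its label: the Y-linked Eif2s3y was at 0.578 CPM there, against 62.1 to 69.9 CPM in the other sections, and the calls below are also given without it, where a test is left or as a value alone. The hepatocyte markers measured (5 of 6 listed) summed to 118787 CPM in the Hk2-deleted section, 171354 and 153420 CPM in the fibrotic sections and 200885 CPM in the healthy section. Sums for 5 of 5 neutrophil markers were 482, 548, 1091 and 17.3 CPM in the same order, and for 7 of 7 macrophage markers 677, 893, 646 and 433 CPM. In summed spots, fewer cells of a type and less RNA per cell cannot be told apart. Fold changes are those of edgeR after TMM scaling, which centres the typical gene on no change; scaling by totals alone raised the median of all genes by 0.34 (log2) between fibrotic and healthy sections.

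CCl4 split the 8 genes. Whole-section transcripts of Chac1, Trib3 and Ddit4 were lower in the fibrotic sections than in the healthy section, with log2 differences of -1.88, -1.46 and -1.27. Atf3 was higher, at 1.28. Atf4, both Ddit3 identifiers, Sesn2 and Asns did not pass the test. In all, 4 of 9 identifiers were called at an adjusted p under 0.05 (edgeR's quasi-likelihood test with Benjamini-Hochberg adjustment over 14125 genes), 1 higher and 3 lower. Of all genes tested 13.7% were called, 9.64% higher and 4.01% lower.

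Among the transcription factors, Atf4, on chr15:80255184-80257545, encodes the factor at the centre of the response and is controlled mainly through translation. It was at 187 CPM in the Hk2-deleted section, 153 and 143 CPM in the fibrotic sections and 164 CPM in the healthy section. The 95% counting intervals of the 4 sections do not overlap, but the healthy section lies between the CCl4-treated ones. The fibrotic over healthy difference was -0.48 ± 0.25 (log2, SE) with an adjusted p of 0.2278.

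Atf3, on chr1:191170296-191183333, encodes a stress-inducible factor that is also an early response gene after liver injury. It was at 13.1 CPM (95% exact Poisson interval 12.2 to 14.0, counting error only) in the Hk2-deleted section, 16.9 (15.9 to 17.9) and 21.6 (20.2 to 23.1) CPM in the fibrotic sections and 6.33 (5.68 to 7.04) CPM in the healthy section. Every CCl4-treated section lay above the healthy one, and fibrotic replicate 2 was the highest. The summed neutrophil markers, given above, had the same order over the 4 sections, and their part in the Atf3 result was not tested. The fibrotic over healthy log2 difference was 1.28 ± 0.24 with an adjusted p of 0.001112. It was 1.53 without fibrotic replicate 1 and 0.97 without replicate 2, with no test left. With the Hk2-deleted section in the place of fibrotic replicate 1 it was 1.15, and the call was lost at an adjusted p of 0.0721.

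Ddit3, on chr10:127290793-127296291, encodes CHOP, a factor that promotes cell death under lasting endoplasmic reticulum stress. ENSMUSG00000025408 was at 24.4 CPM in the Hk2-deleted section, 26.9 and 18.8 CPM in the fibrotic sections and 13.3 CPM in the healthy section. ENSMUSG00000116429, which carries the same symbol, was at 23.9, 24.3, 12.6 and 10.3 CPM in that order. Under both identifiers the healthy section was lowest, and fibrotic replicate 2 was lower than the other CCl4-treated sections. The log2 differences of 0.44 and 0.48 between fibrotic and healthy sections had adjusted p-values of 0.152 and 0.2031; with scaling by totals alone both were called, at 0.78 and 0.84. Of the 2088, 2195, 945 and 1005 spots that held either identifier in the 4 sections, 441, 481, 126 and 109 held both, and at under 1 UMI of each per spot on average the correlation over spots was between 0.0343 and 0.156. Over the 12 sums of 4 sections by 3 zones described below, which pool many spots, Pearson's r between the identifiers was 0.91. How reads were shared between them is not given in the sources used here, so each is reported alone.

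Trib3, on chr2:152337425-152344060, encodes a pseudokinase that is induced by ATF4 and CHOP and dampens both ATF4 and insulin signalling. It was at 3.65 CPM (3.20 to 4.15) in the Hk2-deleted section, 4.25 (3.78 to 4.77) and 2.96 (2.45 to 3.54) CPM in the fibrotic sections, against 7.81 (7.08 to 8.59) CPM in the healthy section. All CCl4-treated sections were lower than the healthy one by more than their counting intervals. The log2 difference was -1.46 ± 0.27 with an adjusted p of 0.001134, and -1.64 and -1.32 without fibrotic replicate 1 or 2. With scaling by totals alone it was -1.11 and no longer called (adjusted p = 0.0898).

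**Figure D1:**
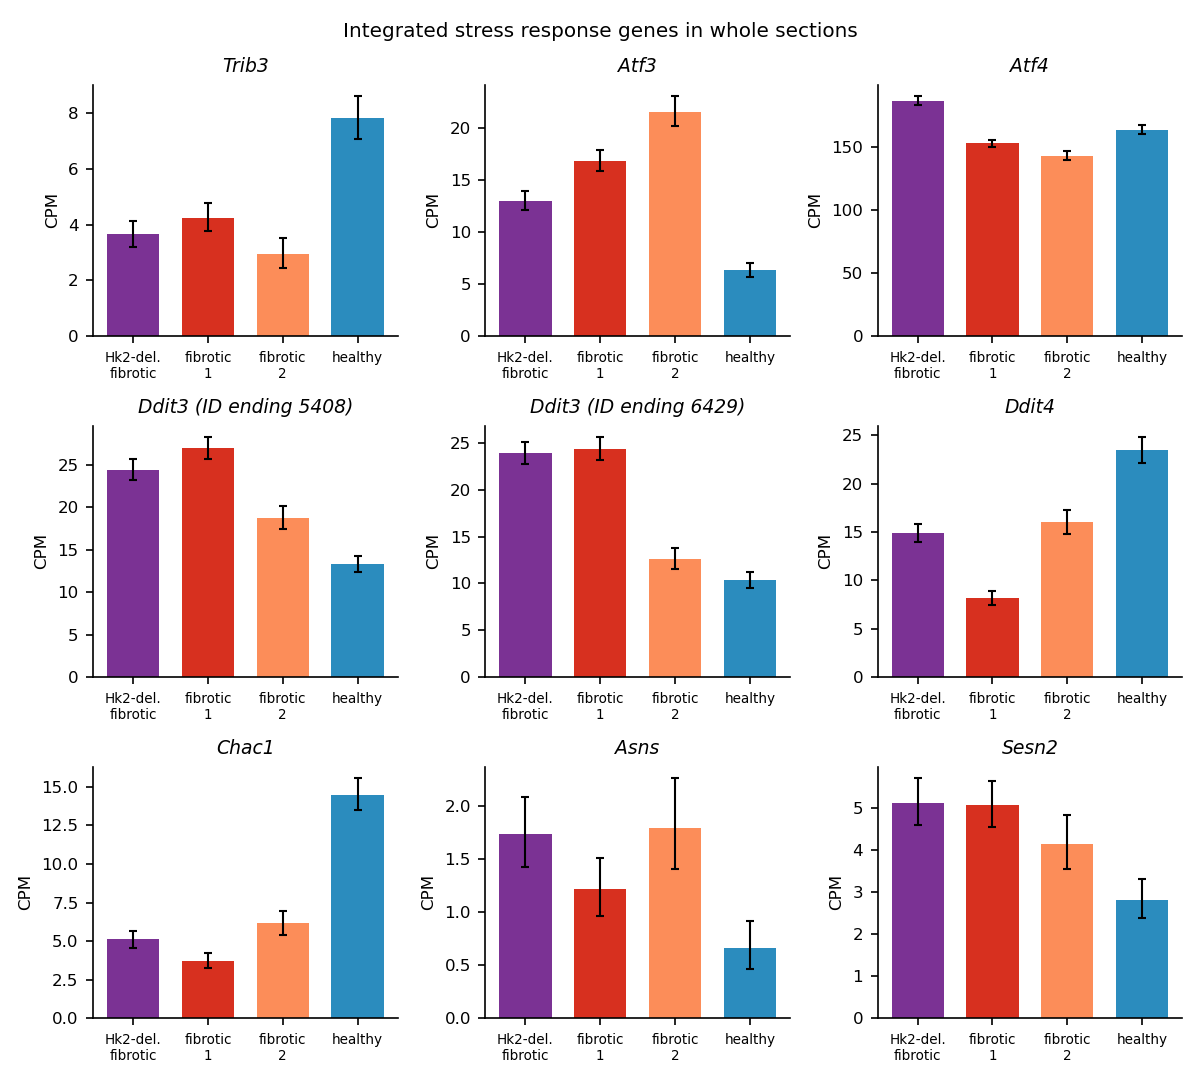
Levels in CPM (y axis) of the 9 identifiers in the Hk2-deleted, fibrotic replicate 1, fibrotic replicate 2 and healthy sections; bars are whole-section levels and whiskers 95% exact Poisson intervals, which cover counting error only. For Trib3, Ddit4 and Chac1 the healthy bar is the highest, for Atf3, both Ddit3 identifiers, Asns and Sesn2 it is the lowest, and for Atf4 it lies between the others.

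The restraints of mTORC1 did not move together. Ddit4, on chr10:59949675-59951770, encodes REDD1, which inhibits mTORC1 and is also induced by hypoxia and glucocorticoids. It was at 14.9 CPM in the Hk2-deleted section, 8.15 and 16.0 CPM in the fibrotic sections and 23.4 CPM in the healthy section. Every CCl4-treated section was below the healthy one, and fibrotic replicate 1 was far below the other CCl4-treated sections. The log2 difference of -1.27 ± 0.28 (adjusted p = 0.004732) was -0.78 without fibrotic replicate 1 and -1.97 without replicate 2, and DESeq2 did not call it (adjusted p = 0.532). With the Hk2-deleted section in the place of fibrotic replicate 1 it was -0.91 and called.

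Sesn2, on chr4:132492804-132510456, encodes sestrin 2, a leucine sensor that restrains mTORC1. It was at 5.11 CPM in the Hk2-deleted section, 5.07 and 4.14 CPM in the fibrotic sections and 2.81 CPM in the healthy section. The Hk2-deleted section and fibrotic replicate 1 did not differ beyond their counting intervals, and the healthy section was lowest. The log2 difference of 0.37 ± 0.30 did not pass the test (adjusted p = 0.4598).

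Of the enzymes, Chac1, on chr2:119351242-119354326, degrades glutathione and is among the transcripts most responsive to ATF4. It was at 5.11 CPM in the Hk2-deleted section, 3.72 and 6.16 CPM in the fibrotic sections and 14.5 CPM in the healthy section. The highest CCl4-treated section, fibrotic replicate 2, stayed below the healthy one with intervals of 5.42 to 6.97 and 13.5 to 15.5 CPM. The log2 difference was -1.88 ± 0.28 with an adjusted p of 0.0001007, and -1.47 and -2.40 without fibrotic replicate 1 or 2.

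Asns, on chr6:7675165-7693209, encodes asparagine synthetase, a classic target of the amino acid response. It was scarce: 113 UMIs (1.73 CPM) in the Hk2-deleted section, 82 and 73 UMIs (1.22 and 1.80 CPM) in the fibrotic sections, and 36 UMIs (0.666 CPM) in the healthy section. All CCl4-treated sections were above the healthy one, but the interval of fibrotic replicate 1 was 0.966 to 1.51 CPM and that of the healthy section reached 0.922 CPM. The log2 difference of 0.85 ± 0.53 did not pass the test (adjusted p = 0.3151).

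Between the Hk2-deleted section and the fibrotic sections none of the members was called. That is 0 of 9 identifiers by edgeR, with 1 of 9 at an unadjusted p under 0.05, and 0 of 9 by DESeq2 both adjusted and unadjusted. Of all genes 0.227% were called in this comparison. The member with the smallest p was Atf3, at -0.62 ± 0.23 (log2, Hk2-deleted over fibrotic; adjusted p = 0.8852). Its level of 13.1 CPM in the Hk2-deleted section lay below the 16.9 and 21.6 CPM of the fibrotic sections, and summed neutrophil markers were also lowest there among CCl4-treated sections. The part of the neutrophil markers was not tested. The other 8 differences ran from -0.03 for Trib3 to 0.34 for Ddit3 ENSMUSG00000116429. A single Hk2-deleted section cannot bound these differences closely.

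**Figure D2:**
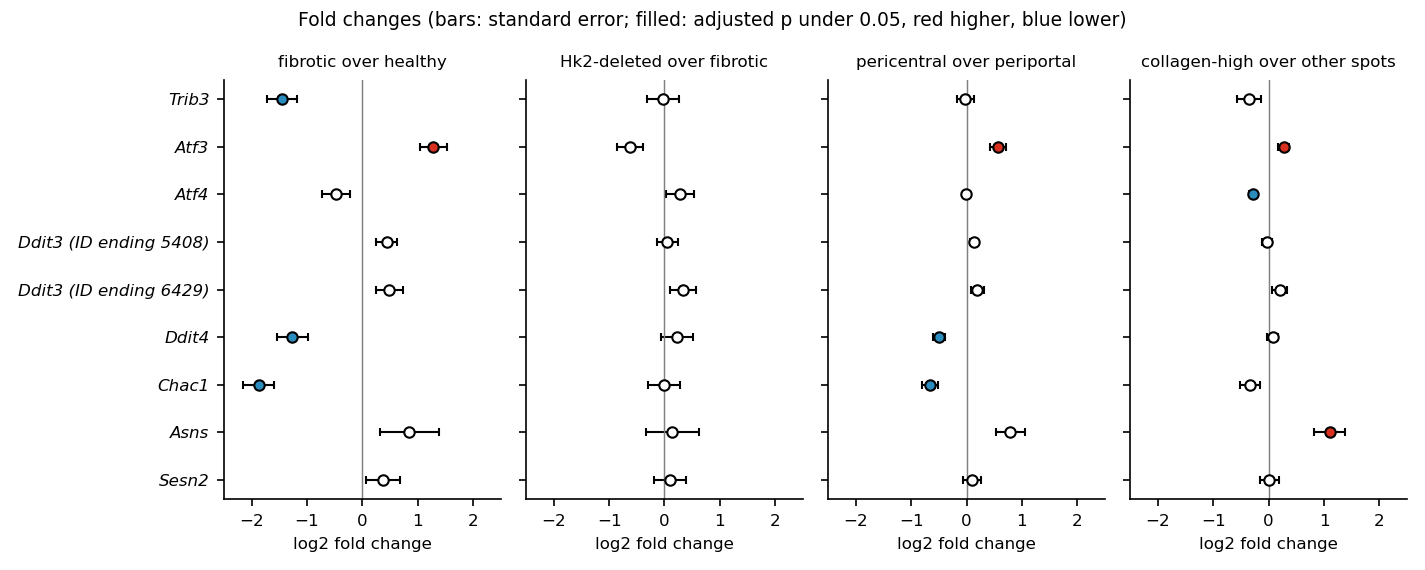
Log2 fold changes (x axis) of the 9 identifiers in 4 comparisons, with standard errors as whiskers; filled circles passed an adjusted p of 0.05, red for higher and blue for lower. Fibrotic over healthy shows Atf3 at 1.28 opposite Trib3, Ddit4 and Chac1 between -1.27 and -1.88, and no circle is filled for Hk2-deleted over fibrotic.

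The rest of the pathway did not move as a block either. Of 14 kinases, phosphatase subunits and subunits of eIF2 and eIF2B tested, 0 were higher and 2 lower in fibrotic than in healthy sections, with a median of -0.27 against 0.00424 for all genes (log2). These were Eif2ak3, which encodes PERK, the endoplasmic reticulum kinase of eIF2, and Eif2b3, a subunit of the exchange factor for eIF2, at -0.69 and -0.67. Both lost their calls with DESeq2 and with scaling by totals alone. Of 9 other ATF4-linked genes, 2 were higher and 0 lower. Nupr1, a stress-induced chromatin regulator, was at 12.2 CPM in the Hk2-deleted section, 16.4 and 8.50 CPM in the fibrotic sections and 3.31 CPM in the healthy section (log2 difference 1.56, adjusted p = 0.0009701). Stc2, a secreted glycoprotein of the stress response, was 1.97 higher (adjusted p = 0.02361), with levels from 1.13 to 2.56 CPM after CCl4 and 0.370 CPM in the healthy section, and DESeq2 did not call it.

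Genes of amino acid supply went both ways. Of 11 enzymes of serine, proline, transsulfuration and one-carbon metabolism tested, 1 was higher (Psat1, of serine synthesis, 1.56, lost with DESeq2 and with scaling by totals alone) and 1 lower (Cbs, of transsulfuration, -0.91). Of 9 amino acid transporters, 2 were higher and 1 lower. Slc1a5 and Slc1a4, neutral amino acid exchangers, were higher by 1.37 and 1.51 (log2). Slc38a2, the sodium-coupled transporter induced when amino acids are short, was at 79.6 CPM in the Hk2-deleted section, 70.2 and 95.9 CPM in the fibrotic sections and 185 CPM in the healthy section, a log2 difference of -1.47 (adjusted p = 0.0006289). The cytosolic aminoacyl-tRNA synthetases, many of them ATF4 targets, were 0 higher and 7 lower of 12, with a median of -0.67. Tars and Aars, which charge threonine and alanine tRNA, were at -1.13 and -0.78 (log2). With scaling by totals alone only 1 of the 12 was called, lower, and Aars lost its call.

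The protein-folding arm was the longest list and had the most lower calls, with a share of lower calls similar to the synthetases (7 of 12) and feeding-induced genes (4 of 7). Of 18 endoplasmic reticulum chaperones and genes of the ATF6 and XBP1 arm tested, 0 were higher and 11 lower, with a median of -0.87. Hspa5, the chaperone BiP, was at 486 CPM in the Hk2-deleted section, 426 and 370 CPM in the fibrotic sections and 849 CPM in the healthy section. All CCl4-treated sections lay well below the healthy one, and the log2 difference was -1.43 ± 0.34 (adjusted p = 0.006613). Creld2, Manf and Dnajb9, small proteins made under endoplasmic reticulum stress, were at -1.48, -1.44 and -1.41. The list had 0 higher and 9 lower with scaling by totals alone, and 0 higher and 13 lower with DESeq2. The summed hepatocyte markers were lower in these sections too, by the values above, and their part was not tested.

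Lists for other inputs to the 8 genes gave mixed counts in the same comparison. Immediate early genes had 1 higher and 3 lower of 12, and heat shock genes 0 higher and 1 lower of 5. Glucocorticoid response genes had 0 higher and 1 lower of 6, fasting-induced genes 0 and 2 of 9, and feeding-induced genes 0 and 4 of 7. Targets of p53 had 3 higher and 1 lower of 11, and mTORC1 and its regulators 2 and 1 of 10. Mitochondrial stress (7 tested), hypoxia (10) and glutathione synthesis and turnover (8) had no call in either direction. Part of these counts turned with the scaling. With scaling by totals alone, immediate early genes had 2 higher and 1 lower, targets of p53 had 5 higher and 1 lower, mTORC1 and its regulators 2 and 0, and mitochondrial stress 1 and 0. Heat shock genes then had no call, glucocorticoid response genes 0 higher and 2 lower, and fasting-induced genes 0 and 3.

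The list calls were also fitted without fibrotic replicate 1, with the Hk2-deleted section in its place beside fibrotic replicate 2. The endoplasmic reticulum list then had 0 higher and 10 lower, the synthetases 0 and 8, the kinase and eIF2 list 0 and 3, and the transporters 2 and 1. Hspa5 was at -1.31 and Slc38a2 at -1.38 (log2), and Creld2, Manf and Dnajb9 ran from -1.26 to -1.42. Slc1a5, Slc1a4 and Nupr1 were at 1.21, 1.35 and 1.33. Tars, Aars, Eif2ak3 and Eif2b3 were at -1.14, -0.75, -0.77 and -0.64, and all of these genes kept their calls. Stc2 (1.88, adjusted p = 0.0684), Psat1 (1.29, 0.0838) and Cbs (-0.90, 0.0508) did not. Feeding-induced genes then had 0 higher and 3 lower, mTORC1 and its regulators 0 and 1, and mitochondrial stress 0 and 1. The immediate early, heat shock, glucocorticoid, fasting and p53 lists had as many calls in each direction as above.

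**Figure D3:**
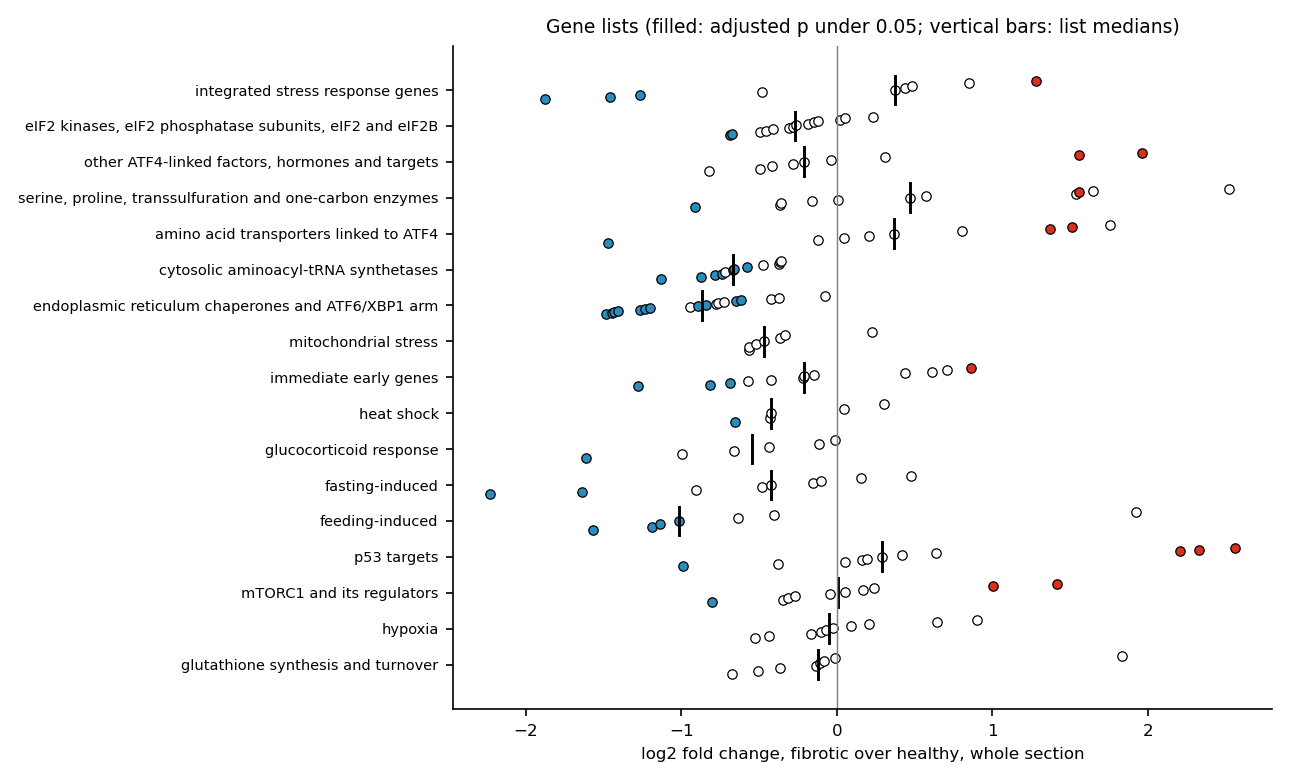
Log2 fold change of fibrotic over healthy whole sections (x axis) for each tested gene of the lists named on the y axis; filled circles passed an adjusted p of 0.05, red for higher and blue for lower, and vertical bars are list medians. The endoplasmic reticulum list has 11 blue circles and a median of -0.87, and the integrated stress response genes spread from -1.88 to 1.28.

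Along the liver lobule, blood flows from the portal to the central vein, and CCl4 is activated near the central vein. Spots of each section were ordered by a score of pericentral minus periportal landmark genes and cut into 3 zones of equal size, pericentral, middle and periportal. Pericentral over periportal, 3 of 9 identifiers were called over the 4 sections, with 11.1% of all genes called (6.01% higher, 5.14% lower). Atf3 was higher pericentrally by 0.57 ± 0.15 (log2; adjusted p = 0.04635). Chac1 and Ddit4 were lower there, at -0.66 and -0.50 (adjusted p of 0.02879 and 0.02932). Asns was 0.79 higher and did not pass (adjusted p = 0.09384).

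These zonal calls rest on few sections. Without the Hk2-deleted section none was called, and the values were 0.52 for Atf3, -0.72 for Chac1 and -0.53 for Ddit4. Without fibrotic replicate 1 only Ddit4 kept its call (-0.61), and without fibrotic replicate 2 none did (0.45 for Atf3, -0.58 for Chac1 and -0.42 for Ddit4). Without the healthy section 5 of 9 were called, with Atf3 at 0.73, Chac1 at -0.83, Ddit4 at -0.43 and Asns at 0.94. The number of all genes called also moved widely with the section left out, as given in the closing paragraphs. The member counts of these fits are therefore not to be read against the 11.1% of all genes above, nor as a stronger member signal. With scaling by totals alone 6 of 9 were called, but there the median of all genes was raised by 0.21, and Ddit4 (-0.29) lost its call. Of all genes 4139 were then called higher and 366 lower, against 787 and 673 with TMM scaling.

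The zonal slope of Atf3 was seen in the CCl4-treated sections. Atf3 was at 17.9, 12.3 and 9.81 CPM in the pericentral, middle and periportal zones of the Hk2-deleted section. It was at 21.9, 16.0 and 11.3 CPM in fibrotic replicate 1 and at 30.7, 21.2 and 14.2 CPM in fibrotic replicate 2. The healthy section was flat, at 6.40, 5.84 and 6.66 CPM. A term for the difference in slope between fibrotic and healthy sections was 0.94 ± 0.21 (log2, adjusted p = 0.005685). Without fibrotic replicate 1 the term was 1.01, with no test left.

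Markers of other cells also differed along the lobule. Summed stellate cell and fibroblast markers were at 2688 pericentrally and 810 CPM periportally in the Hk2-deleted section, 3067 and 1253 CPM in fibrotic replicate 1, 2014 and 637 CPM in fibrotic replicate 2, and 321 and 279 CPM in the healthy section. Summed macrophage markers were at 788 and 589, 1055 and 726, 836 and 503, and 349 and 455 CPM in the same order. Summed neutrophil markers were at 638 and 338, 659 and 397, 1549 and 622, and 19.4 and 13.8 CPM in that order. In the slope term 9 of 9 stellate cell and fibroblast markers were higher, and 4 of 7 macrophage markers were higher and 1 lower. Of 5 neutrophil markers 0 were called by edgeR (1 at an unadjusted p under 0.05) and 0 of the 4 with an adjusted p by DESeq2 (1 of 5 at an unadjusted p under 0.05). The part of these cells in the Atf3 slope was not tested.

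Chac1 was the other member whose slope differed, with a term of -0.70 ± 0.23 (adjusted p = 0.04277). In all, 2 of 9 identifiers were called, 1 in each direction, with 17.2% of all genes called (7.6% higher, 9.58% lower). Chac1 was at 2.98, 3.34 and 5.17 CPM from pericentral to periportal in fibrotic replicate 1, and at 4.22, 7.03 and 6.98 CPM in fibrotic replicate 2. It was at 4.58, 5.00 and 5.65 CPM in the Hk2-deleted section and at 13.5, 13.7 and 15.7 CPM in the healthy section. The call was lost with spots cut into 2 zones in place of 3 (adjusted p = 0.0595), with scaling by totals alone and with all CCl4-treated sections in 1 term. Without fibrotic replicate 1 it was -0.67, with no test left. DESeq2 gave no adjusted p for Atf3, Chac1 and 5 other identifiers in the slope term, with unadjusted p-values of 0.054 for Atf3 and 0.24 for Chac1, and called 0 of the 2 that had one.

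Ddit4 was lower toward the central vein in 3 of the 4 sections. It was at 13.8, 14.9 and 15.7 CPM from pericentral to periportal in the Hk2-deleted section, 13.2, 16.0 and 18.5 CPM in fibrotic replicate 2, and 18.5, 22.1 and 27.4 CPM in the healthy section. In fibrotic replicate 1 it was at 8.40, 8.29 and 7.65 CPM. Asns was at 2.63, 1.89 and 0.849 CPM in the Hk2-deleted section, 1.73, 1.01 and 0.792 CPM in fibrotic replicate 1, 2.11, 2.01 and 1.33 CPM in fibrotic replicate 2 and 0.809, 0.510 and 0.701 CPM in the healthy section, from 9 to 51 UMIs each. The pericentral value of Asns was the highest in every section. Counting intervals of neighbouring zones overlap, except those of the middle and periportal zones of the Hk2-deleted section.

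**Figure D4:**
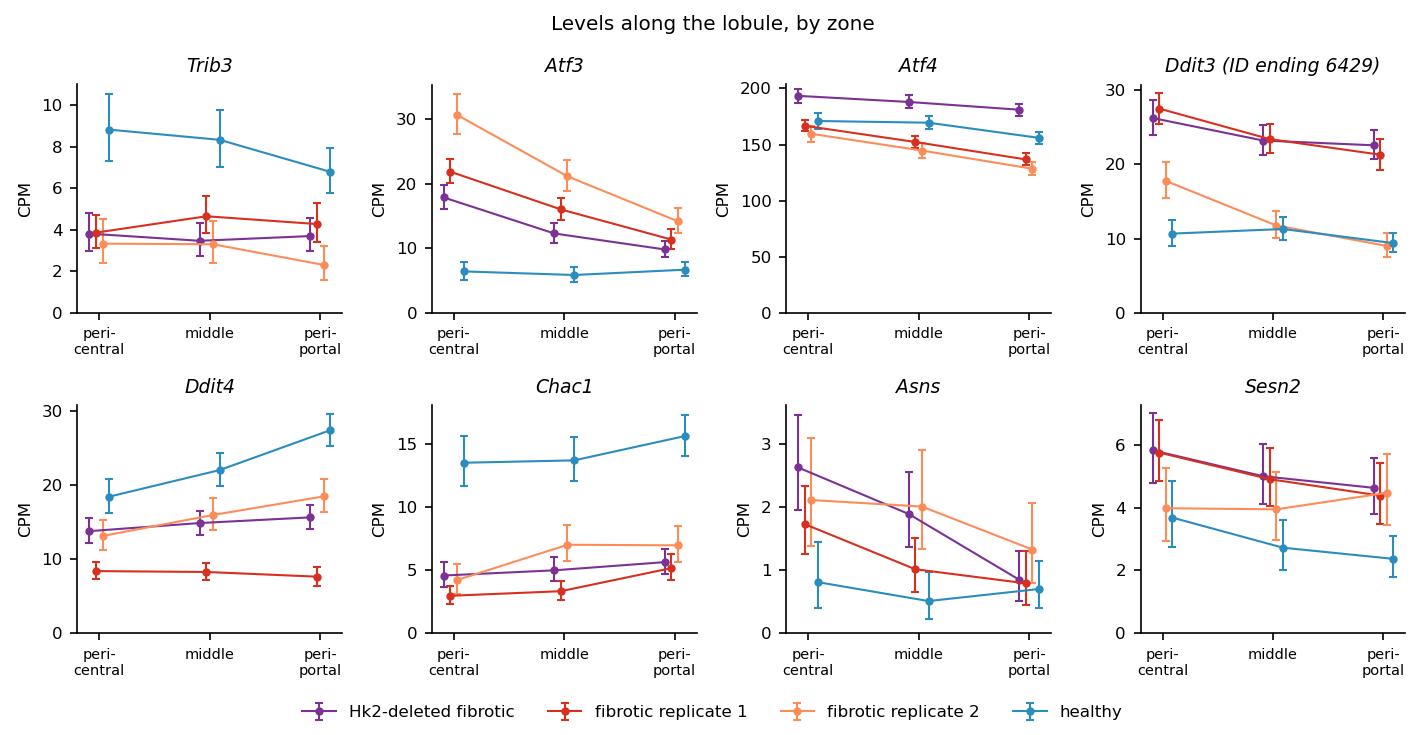
Levels in CPM (y axis) of 8 of the 9 identifiers in the pericentral, middle and periportal zones (x axis), 1 line per section, with 95% exact Poisson intervals of the counts. Atf3 falls from pericentral to periportal in the 3 CCl4-treated sections and stays between 5.84 and 6.66 in the healthy section, and the healthy line lies above all others for Chac1, Trib3 and Ddit4.

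Fibrotic and healthy sections were also compared within single zones. Zones are ranks within a section, so a zone need not hold the same tissue in each. Pericentral landmarks summed to 16298 CPM in the healthy pericentral zone, and to 6920 and 6934 CPM in those of fibrotic replicates 1 and 2. Median UMIs per pericentral and periportal spot were 11783 and 20498 in the healthy section. They were 17396 and 12751.5, and 13302 and 13478, in fibrotic replicates 1 and 2. The part of these differences was not tested. In the pericentral zone 5 of 9 identifiers were called between fibrotic and healthy sections, 2 higher and 3 lower, with 22.4% of all genes called (14.7% higher, 7.77% lower). Atf3 was higher by 1.68, and Ddit3 ENSMUSG00000116429 by 0.73 (adjusted p = 0.03608), a value of 0.46 without fibrotic replicate 1. Chac1, Trib3 and Ddit4 were lower, at -2.30, -1.65 and -1.15. With the Hk2-deleted section in the place of fibrotic replicate 1 these 3 were called at -1.96, -1.65 and -0.80 and Atf3 at 1.58, while Ddit3 ENSMUSG00000116429 was at 0.70 and not called (adjusted p = 0.0591). In the periportal zone only Chac1 was called, at -1.59 (adjusted p = 0.002899), with 3.96% of all genes called (2.48% higher, 1.48% lower). There Trib3 was at -1.26 (adjusted p = 0.05651), Ddit4 at -1.28 (0.05823) and Atf3 at 0.72 (0.1714), and a difference in size between the zones was called for Atf3 and Chac1 only. With the Hk2-deleted section in the place of fibrotic replicate 1, Chac1 (-1.55), Trib3 (-1.38) and Ddit4 (-0.91) were all called periportally. That made 3 members there against 4 in the pericentral zone. With fibrotic replicate 1 kept, 3 members were also called periportally with no filter on low counts, with 2 zones in place of 3, or with the Cyp2e1 and Cyp2f2 score. The gap in member calls between the zones thus depends on the settings. Several other lists had calls in the slope term, where 7.6% of all genes were higher and 9.58% lower. Mitochondrial stress genes had 0 higher and 4 lower of 7, hypoxia genes 0 and 4 of 10, and fasting-induced genes 0 and 3 of 9. Immediate early genes had 4 higher and 2 lower of 12, and the serine, proline, transsulfuration and one-carbon enzymes 1 and 3 of 11. Of 18 endoplasmic reticulum genes, 5 had a higher slope term and 0 a lower one. Among them were Creld2 at 0.75 and Hspa5 at 0.50, which DESeq2 did not call. Fgf21, a hormone released by the stressed liver, had a slope term of 2.82. It was scarce, with whole-section levels of 0.789 to 1.65 CPM, and its levels in single zones are not given here. Without fibrotic replicate 1 these terms were 0.81 for Creld2, 0.54 for Hspa5 and 3.37 for Fgf21, with no test left.

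Collagen-rich spots were examined because the study concerns fibrosis. Collagen-high spots were defined in each section as the top 10 percent by the fraction of UMIs from 3 fibrillar collagen genes, Col1a1, Col1a2 and Col3a1. In the pericentral zone lay 70.5% of them in the Hk2-deleted section and 71.7 and 79.8% in fibrotic replicates 1 and 2. Over these 3 sections, 3 of 9 identifiers were called between collagen-high and other spots, 2 higher and 1 lower, where 43.7% of all genes were called (21.7% higher, 22% lower). The share of members called is below that background.

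Asns was the member with the largest difference. It was at 4.98 CPM in collagen-high and 1.39 CPM in other spots of the Hk2-deleted section, and at 2.91 and 1.00 CPM in fibrotic replicate 1. In fibrotic replicate 2 it was at 2.55 and 1.73 CPM, and in the healthy section at 1.50 and 0.588 CPM. Collagen-high spots were higher in all 4 sections, on 31, 22, 9 and 7 UMIs. The log2 difference was 1.10 ± 0.28 (adjusted p = 0.005532), and 0.84, 1.05 and 1.36 without the Hk2-deleted section, fibrotic replicate 1 or fibrotic replicate 2, each still called. It was 0.54 and lost its call (adjusted p = 0.267) without surface spots. These are spots at or next to a UMI of Msln or Upk3b, mesothelial genes that mark the liver surface. They made up 66.1, 49.2 and 2.33% of collagen-high spots in the Hk2-deleted section and fibrotic replicates 1 and 2. Of all spots they made up 31.0, 33.3 and 2.29% in the same order, so leaving them out also removes many spots that are not collagen-high. Within the middle zone alone the difference was -0.17.

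Atf3 was at 16.5 CPM in collagen-high and 12.7 CPM in other spots of the Hk2-deleted section, 26.0 and 15.7 CPM in fibrotic replicate 1, 31.5 and 20.6 CPM in fibrotic replicate 2, and 8.13 and 6.16 CPM in the healthy section. Its difference of 0.27 ± 0.10 (adjusted p = 0.03291) was lost without fibrotic replicate 1 (0.17), without fibrotic replicate 2 (0.25) and without surface spots (0.01). In the middle zone it was -0.29. DESeq2 did not call the Atf3 difference between collagen-high and other spots of the CCl4-treated sections (unadjusted p = 0.101). Summed neutrophil markers were at 1385 CPM in collagen-high and 386 CPM in other spots of the Hk2-deleted section, 1017 and 489 CPM in fibrotic replicate 1, and 2615 and 945 CPM in fibrotic replicate 2; their part was not tested. Atf4 was lower in collagen-high spots, at -0.29 ± 0.06 (adjusted p = 0.002312), which depends on the scaling: with totals alone it was 0.03, since the median of all genes then rose by 0.32. Without fibrotic replicate 1 it was -0.33 and still called. Raw levels of Atf4 were 174 in collagen-high and 189 CPM in other spots of the Hk2-deleted section, 164 and 152 CPM in fibrotic replicate 1 and 155 and 142 CPM in fibrotic replicate 2. The difference between the Hk2-deleted and fibrotic sections in this contrast was called for 0 of 9 identifiers by edgeR (2 of 9 at an unadjusted p under 0.05) with 1.25% of all genes called. DESeq2 gave an adjusted p to 1 of the 9, which was not called, and 0 of 9 had an unadjusted p under 0.05.

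By distance from the nearest collagen-high spot, Asns was highest in the collagen-high spots themselves in the Hk2-deleted section, with 4.98 CPM there and 1.55, 1.56, 1.10 and 1.46 CPM at 1, 2, up to 4 and over 4 steps on the spot grid. Atf3 was graded in fibrotic replicate 1, with 26.0, 19.0, 15.2, 12.8 and 14.1 CPM over the same rings. In fibrotic replicate 2 it was at 31.5 CPM in the collagen-high spots and between 19.7 and 21.1 CPM in all rings around them.

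**Figure D5:**
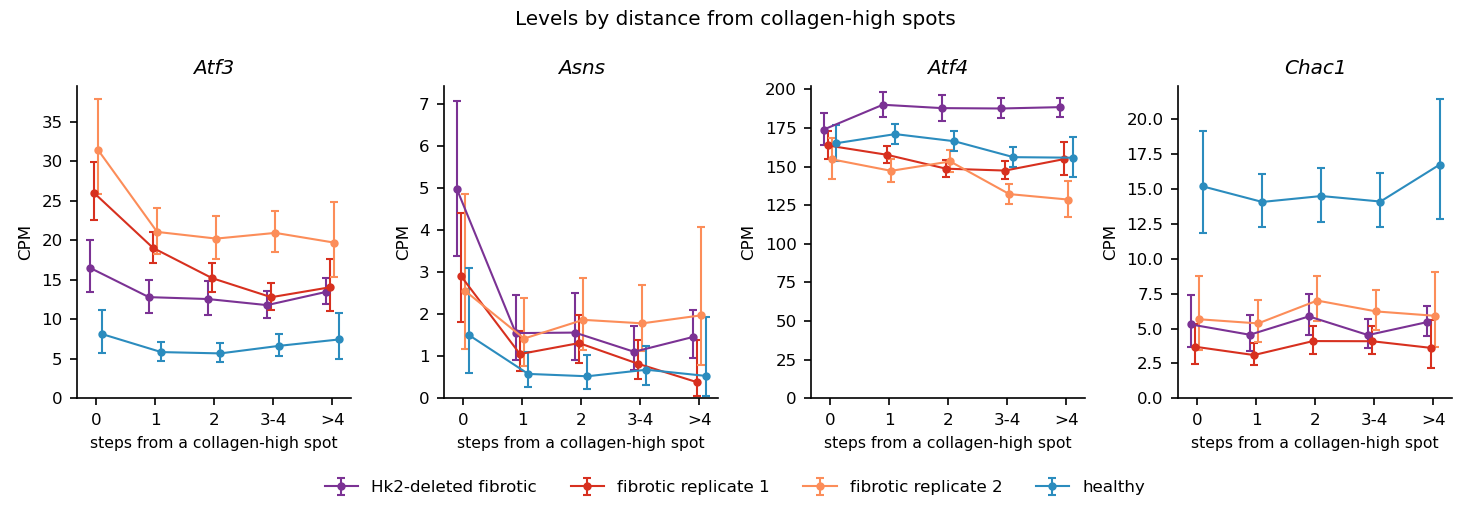
Levels in CPM (y axis) of Atf3, Asns, Atf4 and Chac1 against the distance from the nearest collagen-high spot in steps of the spot grid (0 is the collagen-high spots), 1 line per section, with 95% exact Poisson intervals. Asns and Atf3 are highest at 0 in every section, while Chac1 shows no peak there.

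Other ATF4-linked genes in collagen-high spots went both ways. Of 9 tested, 3 were higher and 5 lower, Nupr1 by 1.29 and Stc2 by 1.26 among the higher ones. The enzyme list had 4 higher and 4 lower of 10, with Phgdh and Psat1 of serine synthesis higher by 1.25 and 0.99. Cth, which makes cysteine from cystathionine, was lower, at -0.98. Slc1a5 was higher by 0.97, in a transporter list of 3 higher and 1 lower of 9. Phgdh lost its call without surface spots (0.48) and within the middle zone (0.41), and Psat1 within the middle zone (0.50) and without the Hk2-deleted section (0.67). The endoplasmic reticulum list had 0 higher and 14 lower of 18. These splits depend on the scaling. With scaling by totals alone the endoplasmic reticulum list had 4 higher and 1 lower, the other ATF4-linked genes 3 and 1, the enzymes 5 and 3, and the transporters 6 and 0, while the named genes kept direction and call. Without fibrotic replicate 1 the named genes were called too, and the lists had 0 and 13, 3 and 4, 4 and 4, and 3 and 1 of 8 tested. Stellate cell and fibroblast markers (9 of 9) summed to 5711, 5460 and 3504 CPM in collagen-high spots of the Hk2-deleted section and fibrotic replicates 1 and 2, against 1054, 1792 and 1004 CPM in their other spots. These markers include the 3 collagen genes that define the spots, so part of the excess was fixed by the definition. Those 3 genes alone summed to 4508, 4154 and 2283 CPM in collagen-high spots and 616, 1179 and 530 CPM in other spots. The part of the stellate cell and fibroblast markers in these differences was not tested.

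The members also differed in how their counts were laid out over a section. In the authors' deposited table of Moran's I, a score of spatial clustering, Atf3 scored 0.0354 and 0.0378 in fibrotic replicates 1 and 2, against 0.00703 in the Hk2-deleted section and 0.0049 in the healthy section. The authors' deposited table thus places Atf3 within the top 6.07% and 4.64% of listed genes in the fibrotic sections. Atf4 scored 0.0265 in the Hk2-deleted section and 0.0319 in fibrotic replicate 1 in the authors' deposited table, and Ddit4 scored 0.02 in the healthy section. Chac1 and Sesn2 scored at most 0.00871 in any section of the authors' deposited table. A member's level was similar in spots with and without a UMI of another member. Over the pairs with at least 20 UMIs expected in each set of spots, the median ratio of the CPM in spots with that UMI to the CPM in spots without was 1.01 over 58 pairs in the Hk2-deleted section, 1.04 over 56 and 50 pairs in fibrotic replicates 1 and 2, and 1.06 over 51 pairs in the healthy section. Single ratios ran from 0.631 to 1.74.

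Over the 12 sums of 4 sections by 3 zones, the members fell on both sides of each other. Pearson's r was 0.85 between Ddit4 and Chac1 and 0.70 between Trib3 and Chac1. It was 0.83 between Atf3 and Asns and 0.89 between Ddit3 ENSMUSG00000025408 and Sesn2. It was -0.81 between Atf3 and Chac1 and -0.94 between Ddit3 ENSMUSG00000025408 and Chac1. Among 8085 genes at 10 CPM or more, the profiles most like Atf3 were those of Mmp9 (0.98), Gnb1 and Atp6v0c, and those most like Trib3 were Acss2 (0.96), Acsl5 and Depp1. Chac1 was most like Serpina3k (0.97), Efna1 and Lap3, and Ddit4 most like Tpmt (0.94), Csrnp1 and C8b. Asns was most like Zdhhc21 (0.95), Asna1 and Trim2, Sesn2 most like Plekhh3 (0.98), Rnf114 and Siae, and Atf4 most like Cep85l (0.96), Uap1 and Ppp4r2. The 3 genes most like Ddit3 were Triap1 (0.98), Tbc1d10b and Nfe2l2 for ENSMUSG00000025408 and Pwwp3a (0.98), Ttll5 and Tap1 for ENSMUSG00000116429. The sums of a section share its library and depth, so these are descriptions of 4 sections.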

How the data were processed

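Each deposited matrix holds UMI counts per gene and spot; the authors made them with Space Ranger 2.0.0 per the file headers. The genome build is mm10 by the submitters' processing notes, and the sources used here do not name the probe set. A deposited Moran's I table gives a spatial score per gene with its adjusted p-value, which was not used, per the file headers. The members and gene lists were chosen with earlier results of these data known. The 8 members are always named; of other lists, up to 4 called genes with the largest change per comparison, and for likeness the 3 genes of highest r, may be named.

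UMI counts were summed per section, zone or kind of spot, since spots are not replicates, and tested with edgeR 4.0.16 (R 4.3.3; TMM, filterByExpr, quasi-likelihood) at an adjusted p under 0.05 over all genes. Whole sections and single zones had 1 fit of 3 groups; zones and collagen-high spots had section as a block, slopes an interaction term. The zone score averages z-scored log2(CPM + 1) over 7 pericentral landmarks (of 9 listed, the others being outside the table) and subtracts the average over 12 periportal ones. Scripts were tested on simulated data. Alternatives were DESeq2 1.42.0, no TMM, no filter, left-out sections, 2 zones in place of 3, a score from Cyp2e1 and Cyp2f2, other collagen thresholds, and spots without surface or collagen-high ones. Images were not analysed here.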

Additional observations from a re-analysis of the deposited data

Results flagged for a closer look

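A test of the difference itself set fibrotic apart from healthy sections in the pericentral over periportal contrast for 2 members. The term was 0.94 for Atf3, whose pericentral and periportal levels were 21.9 and 11.3 CPM in fibrotic replicate 1, 30.7 and 14.2 CPM in fibrotic replicate 2, and 6.40 and 6.66 CPM in the healthy section. The term was -0.70 for Chac1, at 2.98 and 5.17 CPM in fibrotic replicate 1, 4.22 and 6.98 CPM in fibrotic replicate 2, and 13.5 and 15.7 CPM in the healthy section. The Atf3 term was 1.01 without fibrotic replicate 1 and 0.87 without replicate 2, and that of Chac1 -0.67 and -0.72, with no test left. By edgeR 2 of 9 identifiers and 17.2% of all genes were called in this term. DESeq2 gave neither member an adjusted p, with unadjusted p-values of 0.054 for Atf3 and 0.24 for Chac1. The Chac1 call was lost with 2 zones in place of 3, with scaling by totals alone and with all CCl4-treated sections in 1 term.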

How the results depend on the processing

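Sections could not be paired between groups, because the healthy and Hk2-deleted groups hold 1 section each. Zones and kinds of spot were compared within sections, with section as a block. Of 561 values of members recomputed under other settings, 439 kept their direction and side of the threshold or stayed within their spread, and 36 reversed. The spread, used where no test was left, is that between the fibrotic replicates. A fit that leaves out 1 of them stays within it almost by construction, so those values say little about stability. DESeq2 called fewer genes: 1034 genes (against 1929) between fibrotic and healthy sections, 21 (32) with Hk2 deletion, 315 (2299) for the slope term, where 7537 genes had no adjusted p, 1283 (2943) and 3 members (5) in the pericentral zone, 217 (517) in the periportal zone, and 7 (175) for the collagen-high by Hk2 term, where 10553 had none. With no TMM, 113 genes were called with Hk2 deletion, 4505 (1460) genes and 6 members (3) between zones, 1 member for the slope term and 5 members (3) in collagen-high spots. The share of calls that were higher moved from 70.6 to 90.1% between fibrotic and healthy sections, 53.9 to 91.9% between zones, 44.2 to 74.3% for the slope term, 65.4 to 90.2% and 62.7 to 80.4% in the pericentral and periportal zones, and 49.7 to 91.6% in collagen-high spots. With DESeq2 it moved from 62.5 to 52.4% with Hk2 deletion and from 86.9 to 57.1% for the collagen-high by Hk2 term. With no filter on low counts, 126 genes were called with Hk2 deletion and 971 genes and 3 members (1) in the periportal zone. Without collagen-high spots 5 genes were called with Hk2 deletion. With the Hk2-deleted section in the place of fibrotic replicate 1, 821 genes and 3 members were called in the periportal zone, and 3 members also with 2 zones in place of 3 or with the Cyp2e1 and Cyp2f2 score, which called 1 member between zones. All CCl4-treated sections in 1 term left 1 member for the slope. Leaving out each section gave 207 to 5385 genes and 0 to 5 members between zones. For collagen-high spots, 1 member was called without surface spots and 2889 genes (5892) within the middle zone; for their Hk2 term, 68 genes with the top 20 percent and 27 without surface spots.

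Reversed values were all of differences that had missed the threshold, other than Atf3, Asns and Atf4 in collagen-high spots. With Hk2 deletion they were Trib3 (0.013) and Chac1 (0.056) with no TMM and Asns (-0.023) without collagen-high spots. Between zones they were Trib3 (0.18) and Atf4 (0.21) with no TMM. Leaving out each section gave -0.18 to 0.11 there for Trib3, -0.018 to 0.036 for Atf4 and -0.0082 to 0.24 for Sesn2. For the slope term they were Atf4 with 2 zones in place of 3 (-0.023) and with all CCl4-treated sections in 1 term (-0.039), and in the pericentral zone Sesn2 with 2 zones (-0.056). In collagen-high spots they were Atf4 (0.035) and Ddit3 ENSMUSG00000025408 (0.29) with no TMM and Sesn2 with DESeq2 (-0.018). With the top 20 percent they were Ddit3 ENSMUSG00000025408 (0.0095), Ddit4 (-0.023) and Sesn2 (-0.17), and without surface spots Ddit3 ENSMUSG00000025408 (0.17) and Ddit4 (-0.0072). Within the middle zone they were Trib3 (0.11), Atf3 (-0.29) and Asns (-0.17). Leaving out each section gave -0.12 to 0.071 for Ddit3 ENSMUSG00000025408, -0.10 to 0.063 for Sesn2 and -0.0087 to 0.38 for Ddit3 ENSMUSG00000116429, which was called at the upper end, without the Hk2-deleted section. For the collagen-high by Hk2 term they were Ddit4 (0.021) with no TMM, Ddit4 (0.16), Chac1 (-0.033) and Sesn2 (0.064) with the top 5 percent, Trib3 (-0.18), Ddit4 (0.063) and Sesn2 (0.18) with the top 20 percent, and Ddit4 (0.022), Chac1 (-0.52) and Sesn2 (0.43) without surface spots. The causes were not tested, beyond the scaling shifts given above. Depth limits Asns most, with as few as 7 UMIs in a summed set of spots.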
